A study of Mus musculus with 6 samples.

Results

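The Ly49 receptors are encoded by the Klra genes. RNA of 9 of them (Klra1, Klra2, Klra3, Klra4, Klra6, Klra7, Klra8, Klra9 and Klra17) was read from gene tables of 55487 genes, in which each member was found once by its Ensembl identifier and its symbol in GENCODE M21. The libraries were made from polyA RNA of CD45+ cells, that is total hematopoietic cells, sorted from the intestine-draining mesenteric lymph node (mLN) or from the spleen. All mice were WT (wild type) C57BL6/J, and the cells were freshly prepared with no other treatment named. There were 3 mLN and 3 spleen libraries. Whether the replicates are separate animals is not stated in the labels, and p-values therefore reflect the spread among these 6 libraries, part or all of which could be technical. The libraries held 12584244 to 18119551 expected counts (reads per gene as estimated by the program RSEM). Together the 9 members held 167 to 297 counts per mLN library and 457 to 515 per spleen library.

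Ly49 proteins are C-type lectin-like receptors that sit in the membrane as pairs and bind MHC class I molecules on other cells. Inhibitory members carry in their cytoplasmic tail an immunoreceptor tyrosine-based inhibitory motif (ITIM), which recruits the phosphatase encoded by Ptpn6 and restrains the cell. Activating members lack this motif and signal through an adaptor encoded by Tyrobp. Most members are known from natural killer (NK) cells and some T cells, where each cell expresses only some of the genes. Klra2 (Ly49B) and Klra17 (Ly49Q) are the exceptions, known from myeloid cells and, for Klra17, also from plasmacytoid dendritic cells (pDC).

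The first 36 coding bases of the 9 members are shown because they hold the motif that separates inhibitory from activating receptors. They were read 5′ to 3′ from the first-numbered protein-coding transcript of each gene in GENCODE M21 (build GRCm38), and capitals mark codon 8, the place of the ITIM tyrosine.
Klra1: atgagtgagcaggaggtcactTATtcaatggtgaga
Klra3: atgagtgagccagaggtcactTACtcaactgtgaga
Klra6: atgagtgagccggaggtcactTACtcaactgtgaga
Klra7: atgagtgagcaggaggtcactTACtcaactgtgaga
Klra9: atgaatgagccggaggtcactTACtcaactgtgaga
Klra2: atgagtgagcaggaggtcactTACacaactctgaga
Klra17: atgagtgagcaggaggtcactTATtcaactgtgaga
Klra4: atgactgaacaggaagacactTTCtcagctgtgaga
Klra8: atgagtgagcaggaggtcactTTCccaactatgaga
A tyrosine codon, TAC in 5 members and TAT in 2, stands there in the 7 inhibitory genes. The 2 activating genes, Klra4 and Klra8, have TTC, a phenylalanine codon.

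The genes lie on the minus strand of chromosome 6 (GRCm38), in the NK gene complex. From Klra17 (129831154 to 129876672) to Klra1 (130363917 to 130386874) they form a row with Klra5, Klra10 and 3 pseudogenes between them. Klra2 (131219223 to 131247362) stands 832 kb beyond Klra1. It is also the most distant in sequence, with 65.5% to 68.6% identity to the 8 other members over the aligned coding sequence. The 7 NK-type members were 74.0% to 95.9% identical to each other (21 pairs), with Klra3 and Klra9 the closest pair.

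Close copies share reads, which RSEM apportions by a model. Klra2 and Klra17 shared no window of 50 bases of their first-numbered transcript with a transcript of any other gene (the read length is not given in the sources used here). Shared windows made up 33.1% in Klra8, chiefly with the pseudogene Klra14-ps, whose transcripts also contain the 36 bases printed above for Klra8. They made up 30.0% in Klra9 and 18.8% in Klra3, both chiefly with Klra10, and 10.5% in Klra7, with Klra13-ps. In Klra4, Klra1 and Klra6 they were 4.68%, 3.15% and 2.62%. Expected counts, deposited to 2 decimals, were whole in all 6 libraries for 6 members and fractional in some library for Klra3, Klra7 and Klra9.

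Klra2 gave the most transcripts of the family in every library. In TPM (transcript abundance allowing for length, scaled to 1000000 per library), Klra2 stood at 7.90 ± 0.851 in mLN and 15.7 ± 1.21 in spleen (SD, n = 3 each). Klra7 (Ly49G, an inhibitory receptor of NK cells) came next at 4.78 ± 1.14 TPM in mLN and 8.88 ± 1.91 TPM in spleen. Klra4 (Ly49D, activating) had 2.47 ± 0.0473 TPM in mLN and 2.83 ± 0.811 TPM in spleen, and Klra17 had 1.75 ± 0.784 TPM in mLN and 5.61 ± 1.46 TPM in spleen. The other 5 members averaged under 1 TPM in both tissues, down to Klra3 (Ly49C, an inhibitory receptor for self class I in this strain) at 0.0267 TPM in mLN and 0.0467 TPM in spleen. In mLN, Klra2, Klra7 and Klra4 followed each other with no overlap between libraries, whereas Klra4 and Klra17, Klra17 and Klra6, and Klra6 and Klra1 overlapped, with Klra9, Klra8 and Klra3 below them all and overlapping among themselves. In spleen, Klra2, Klra7, Klra17, Klra4 and Klra9 followed each other without overlap, and Klra9, Klra1, Klra6, Klra8 and Klra3 overlapped with their neighbours. The members with the most shared windows, Klra8, Klra9 and Klra3, had the lowest means in mLN. In spleen Klra9, at 0.870 TPM, averaged above Klra1 (0.767) and Klra6 (0.620), which shared few windows. Whether shared reads bear on these levels was not tested.

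**Figure D1:**
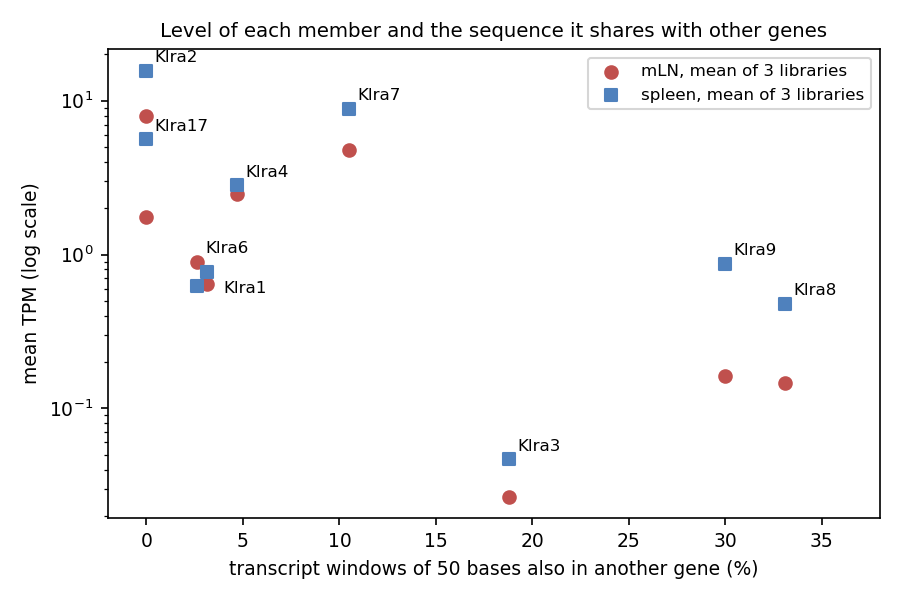
Mean TPM of each member (log axis, circles for mLN and squares for spleen, 3 libraries each) against the share of its 50-base transcript windows found in another gene. Klra2 and Klra17 share none, while Klra8 shares 33.1%, and Klra8, Klra9 and Klra3 have the lowest means in mLN but not all of the lowest in spleen.

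As a share of the summed TPM of the 9 members, Klra2 made up 42.2 ± 1.64% in mLN and 44.0 ± 3.01% in spleen, and Klra7 25.2 ± 3.05% in mLN and 24.6 ± 2.90% in spleen. Both shares overlapped between the tissues. The share of Klra17 was 12.8%, 7.69% and 6.90% in mLN libraries, against 12.5%, 18.0% and 16.1% in spleen libraries, with overlap. Klra4 made up 11.8%, 12.6% and 15.6% in mLN, against 11.1%, 5.76% and 7.21% in spleen. Klra4, Klra6 and Klra1 each took a larger share in all 3 mLN libraries than in any spleen library. The shares add to a fixed total, so they do not move independently, and no test was made on them.

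**Figure D2:**
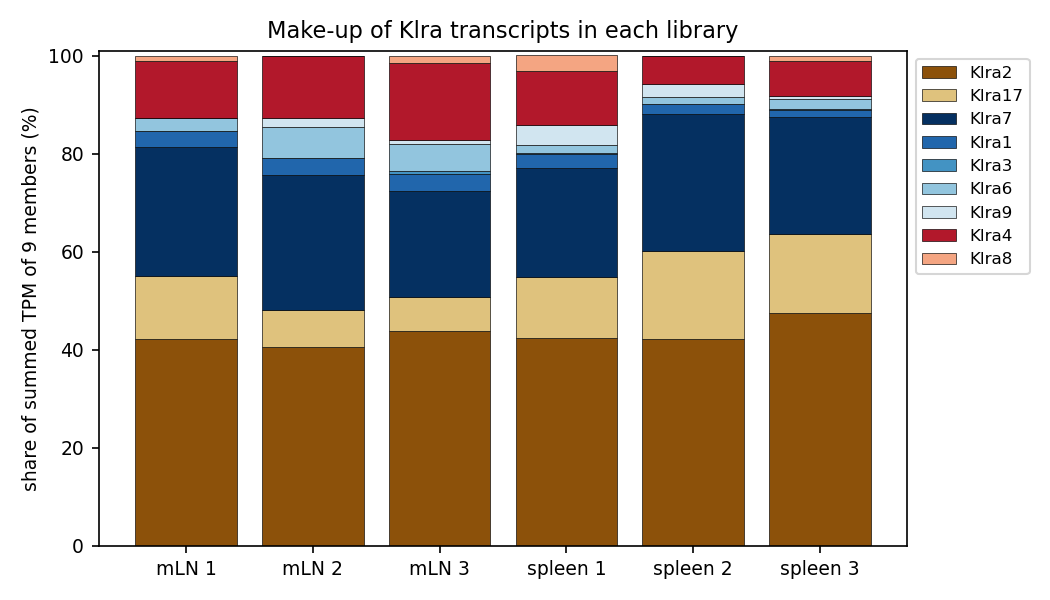
Stacked bars give the share (%) of each of the 9 members in their summed TPM in every library, mLN on the left. Klra2 (brown) takes 40.5% to 47.5% in each library, and Klra17 (tan) is 6.90% to 12.8% in mLN and 12.5% to 18.0% in spleen.

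To compare the tissues, counts were scaled to CPM (the count per 1000000 counts of the library, with TMM factors). Calls are genes whose adjusted p in edgeR's quasi-likelihood test over 14427 genes was below 0.05. Only 5 of the 9 members passed the filter on low counts. Of these, 3 fell in mLN (Klra2, Klra7 and Klra17), 2 were not called (Klra1 and Klra4), and none rose, also at an unadjusted p under 0.05 and by DESeq2 (0 in each). Of all genes tested, 23.8% were called lower, 21.8% higher and 45.5% in either direction, so a call by itself was common. In bulk samples such as these, fewer cells of a type and less RNA per cell cannot be told apart.

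Among the inhibitory NK-type members, Klra7 was the most abundant. It had 2.74, 3.25 and 1.86 CPM in mLN libraries, against 3.58, 5.48 and 4.10 CPM in spleen libraries. All mLN libraries lay below all spleen libraries, by a margin that was small beside the range within a tissue. The log2 fold change of mLN over spleen was -0.72 (SE 0.274, edgeR adjusted p = 0.0283), a direction that turned to 0.20 (adjusted p = 0.606) when libraries were scaled to NK genes as described below. The call of Klra7 was lost without mLN replicate 3 (log2 fold change -0.54, adjusted p = 0.122) or spleen replicate 2 (-0.53, adjusted p = 0.194). It was also lost without spleen replicate 3, where the fold change was no smaller (-0.77, adjusted p = 0.0542).

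Klra1 encodes Ly49A, an inhibitory receptor. It had 0.667, 0.731 and 0.567 CPM in mLN libraries, against 0.977, 0.792 and 0.478 CPM in spleen libraries. The spleen libraries enclosed the mLN ones, and the log2 fold change of -0.18 was not called (SE 0.545, edgeR adjusted p = 0.817). Without spleen replicate 1 its sign turned (0.055), as it did with scaling to NK genes (0.71).

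Klra6 (Ly49F, inhibitory) was not tested because of its low counts. It held 5, 14 and 7 counts in mLN libraries, against 6, 6 and 7 counts in spleen libraries. The tissues overlapped, and the ratio of summed counts, mLN over spleen, was 1.53 with an exact 95% interval of 0.816 to 2.93 that covers counting error only. Klra9 (Ly49I, inhibitory and close to Ly49C) had 0, 4 and 1 counts in mLN libraries, against 15.24, 12 and 2.04 in spleen libraries. Spleen replicate 3 lay within the mLN range, and the ratio was 0.193 (interval 0.0584 to 0.505). Tested with no filter on low counts, Klra9 was not called (edgeR adjusted p = 0.0819). Klra3 never exceeded 1 count in a library (0, 0 and 0.56 in mLN, 0.76, 0 and 0.96 in spleen), and any difference was not detectable at this depth.

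No activating member was called. Klra4 had 1.73, 1.80 and 1.78 CPM in mLN libraries, against 2.59, 1.58 and 1.67 CPM in spleen libraries. The mLN libraries lay close together inside the range of the spleen ones, where replicate 1 was high. The log2 fold change was -0.14 (SE 0.371, edgeR adjusted p = 0.796), with its sign turned without spleen replicate 1 (0.12) and with scaling to NK genes (0.78). Klra8 encodes Ly49H, the receptor for a protein of mouse cytomegalovirus. It had 2, 0 and 2 counts in mLN libraries, against 12, 0 and 4 counts in spleen libraries. Spleen replicate 1 alone held most of the 16 spleen counts, the tissues overlapped, and the ratio was 0.280 (interval 0.0681 to 0.868, counting error only). With no filter, edgeR gave an adjusted p of 0.409.

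Because reads shared between NK-type members stay within their sum, the 7 were also added up (reads shared with Klra10 or pseudogenes can still move it). Their summed level was 5.60, 6.80 and 5.07 CPM in mLN libraries, against 9.10, 8.96 and 7.09 CPM in spleen libraries. All mLN libraries lay below all spleen libraries, with means of 5.82 ± 0.886 CPM in mLN and 8.38 ± 1.12 CPM in spleen (SD, n = 3 each), a log2 ratio of -0.53. The 5 inhibitory members among them summed to 3.95 ± 0.956 CPM in mLN and 6.12 ± 1.13 CPM in spleen. The 2 activating ones summed to 1.87 ± 0.0719 CPM in mLN and 2.26 ± 0.898 CPM in spleen, with overlap. No test was made on these sums.

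Klra2, the inhibitory member of myeloid cells, had 9.54, 8.89 and 7.69 CPM in mLN libraries, against 15.1, 17.7 and 16.7 CPM in spleen libraries. The tissues were well apart. The log2 fold change was -0.91 (SE 0.135, edgeR adjusted p = 2.81e-07). Scaling to NK genes gave 0.015 (edgeR adjusted p = 0.957). Those genes had themselves fallen (median -0.95), so a gene with a similar fall lands near 0 there. They are no reference for myeloid cells or pDC. Klra17, an inhibitory receptor of pDC and myeloid cells, had 1.73, 1.01 and 0.729 CPM in mLN libraries, against 2.76, 4.69 and 3.53 CPM in spleen libraries. The highest mLN library lay below the lowest spleen library. Its log2 fold change was -1.64 (SE 0.353, edgeR adjusted p = 0.000156). Scaling to NK genes, with the same limit, gave -0.74, and the call was lost (edgeR adjusted p = 0.0979).

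**Figure D3:**
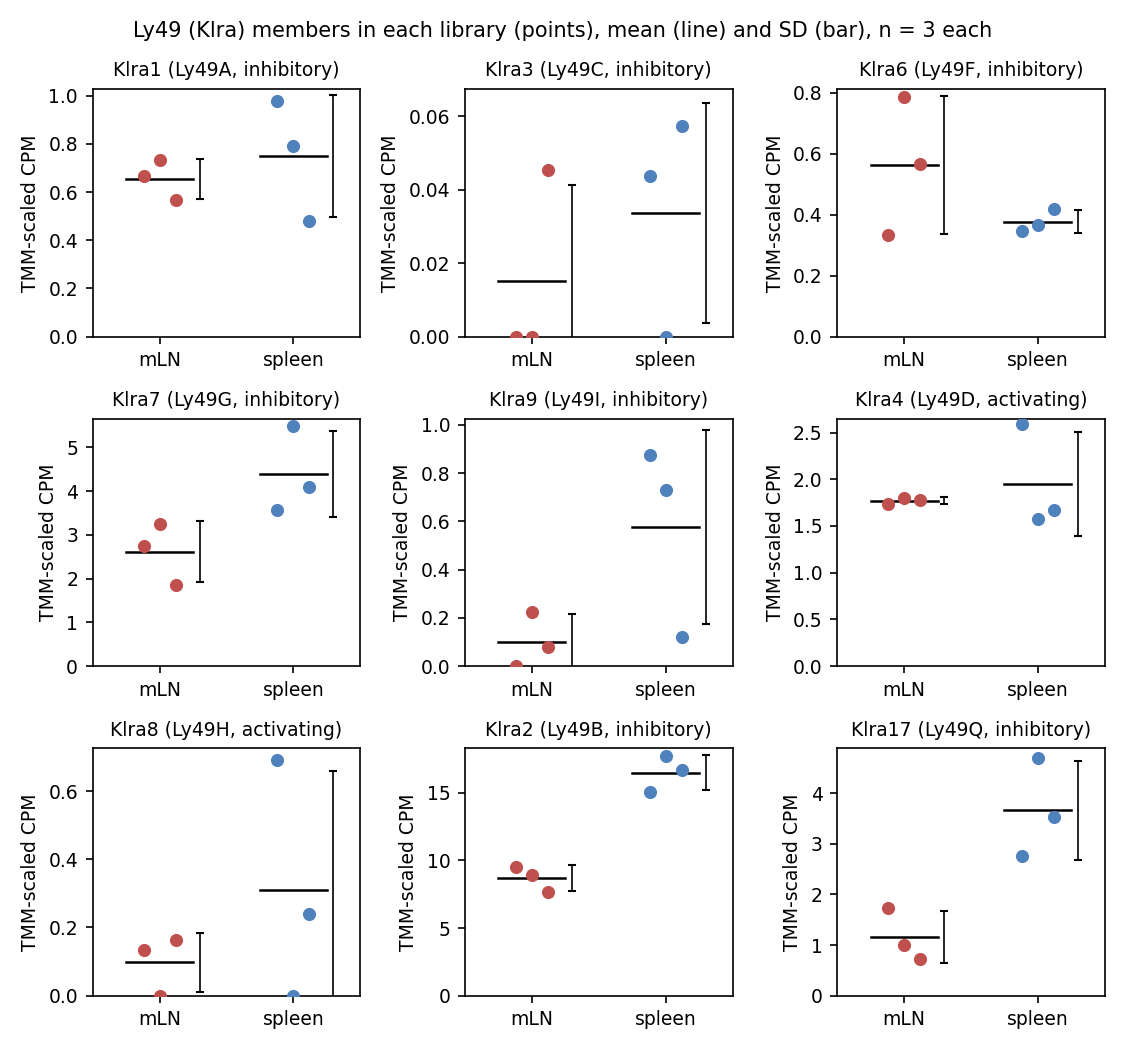
TMM-scaled CPM of the 9 members in each library (points, 3 mLN on the left and 3 spleen on the right in each panel; line for the mean, bar for the SD, cut at 0; each panel has its own scale from 0). The tissues do not overlap for Klra2, Klra7 and Klra17 and overlap for the other 6. The share of all genes without overlap is not given here. Of all genes tested, 45.5% were called in either direction, so a lack of overlap by itself says little of the family.

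The myeloid-leaning members were set against each other and against the NK-type sum in each library, as log2 ratios of CPM + 0.1. Klra17 to Klra2 was -2.39, -3.01 and -3.23 in mLN, against -2.41, -1.90 and -2.21 in spleen. The mean was lower by 0.71 in mLN, but the tissues overlapped in mLN replicate 1 (exact two-sided permutation p = 0.2, where 0.1 is the smallest that 3 against 3 allows). The NK-type sum to Klra2 was -0.76, -0.38 and -0.59 in mLN, against -0.72, -0.98 and -1.22 in spleen. The NK-type sum to Klra17 was 1.64, 2.63 and 2.64 in mLN, against 1.69, 0.92 and 0.99 in spleen. Both ratios were higher on average in mLN and overlapped between tissues, and no test was made on them. The ratio of Klra2 to Csf1r, the receptor gene of monocytes and macrophages, was -3.64, -3.63 and -3.85 in mLN, against -3.16, -2.93 and -2.93 in spleen. Here all mLN libraries lay below all spleen libraries, but the direction of such a ratio depends on the gene chosen. Log2 fold changes were -0.21 for Csf1r and -0.91 for Klra2, against -1.37 for Adgre1 and -1.64 for Itgam. Ccr2 and Ly6c2, also in the monocyte list, rose (0.15 and 0.74). Klra17 to Siglech, a pDC gene, was -1.57, -2.35 and -3.08 in mLN, against -2.19, -1.18 and -1.86 in spleen, with overlap. These comparisons were not tested either.

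**Figure D4:**
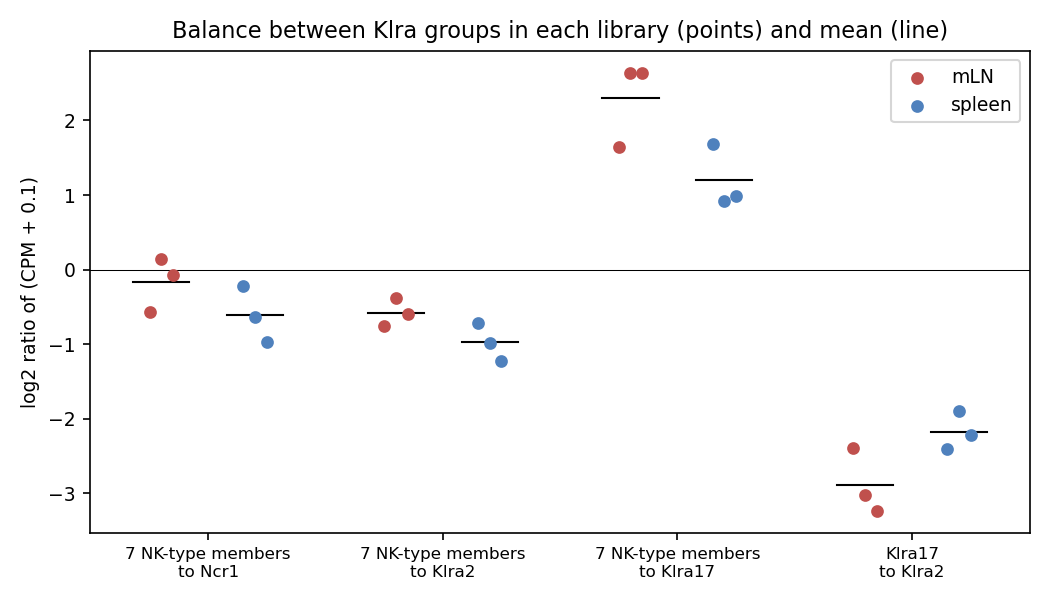
Log2 ratios of (CPM + 0.1) in each library (points; line for the mean of 3), mLN left of spleen for each ratio. The tissues overlap in the 4 ratios plotted, including that of Klra17 to Klra2 (mean -2.88 in mLN and -2.17 in spleen).

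Some NK genes outside the Klra family were lower in mLN as well, and others were not. Ncr1, which encodes the NK receptor NKp46, had 6.61 ± 1.55 CPM in mLN and 12.8 ± 1.96 CPM in spleen (log2 fold change -0.95, edgeR adjusted p = 5.57e-06). Klrb1c, which encodes NK1.1, fell by 0.95 on the log2 scale (adjusted p = 0.0141). Of the 12 other lectin genes of the NK gene complex found in the tables, 9 were tested, 4 fell, 5 were not called and none rose by edgeR (median log2 fold change -0.61, against -0.002 over all genes tested). Klrc3 fell by 1.98, whereas Klrd1, the partner chain of the NKG2 receptors, stood at -0.075 (adjusted p = 0.654). In the NK lineage list 11 of 15 tested genes fell and 4 rose (median -0.68), and the summed level of the list was 1120 to 1150 CPM in mLN, against 1110 to 1160 CPM in spleen. S1pr5, an egress receptor gene of mature NK cells, fell by 3.44 and the granzyme gene Gzma by 1.61. The genes that rose were Txk (1.32), Eomes (0.67), Il2rb (0.39) and Nkg7 (0.28). T cells can also express genes of this list, and all 8 pan-T genes and 5 of 5 CD8 T-cell genes rose (medians 1.21 and 1.10). The part of T cells in the values of the list, for genes that rose or fell, was not tested. Of 7 genes of type 1 innate lymphoid cells (ILC1), which lie close to NK cells, 4 rose and 1, Itga1, fell (by 1.72). The list summed to 322 to 331 CPM in mLN, against 171 to 176 CPM in spleen. Much of that was Il7r, with means of 214 CPM in mLN and 93.3 CPM in spleen. The part of T cells in this list was not tested either.

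To set the members against NK transcripts, libraries were scaled to the summed counts of 6 NK genes outside the family (Ncr1, Klrb1c, Klrb1b, Klre1, Klri1 and Klri2). All 3 of these that were tested had fallen (median -0.95). They held only 142 to 253 counts in mLN libraries and 419 to 482 in spleen libraries, with no counts of Klrb1b in any library and none of Klri2 in mLN. This scaling moved the median of all genes to 0.95, and it is no reference for the myeloid-leaning Klra2 and Klra17. Relative to it no member was called by edgeR in either direction (0 also at an unadjusted p under 0.05), with log2 fold changes of 0.78 for Klra4, 0.71 for Klra1, 0.20 for Klra7, 0.015 for Klra2 and -0.74 for Klra17. The log2 ratio of the NK-type sum to Ncr1 alone was -0.57, 0.15 and -0.076 in mLN, against -0.22, -0.63 and -0.97 in spleen, with overlap.

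**Figure D5:**
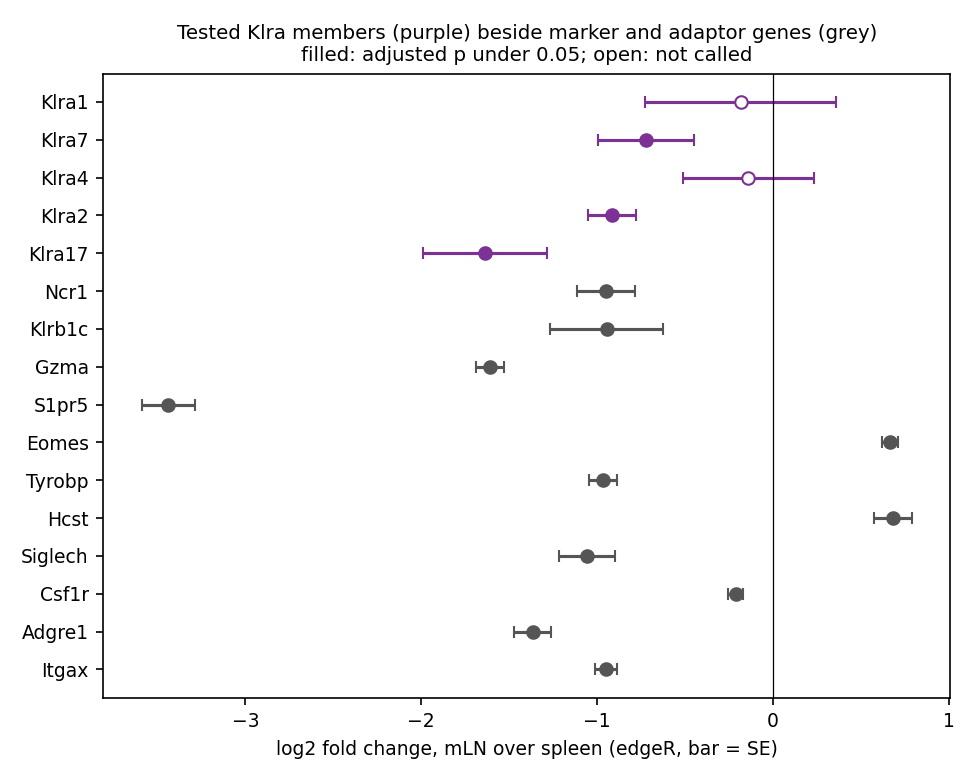
Log2 fold changes of mLN over spleen (points) with SE (bars) from edgeR for the 5 tested members (purple) and for marker and adaptor genes (grey); filled points have an adjusted p under 0.05. Klra2, Klra7 and Klra17 lie below 0 with Ncr1, Klrb1c and Tyrobp, while Klra1 and Klra4 are open and close to 0. Of the grey points, Eomes (0.67) and Hcst (0.68) lie above 0 and the others below it. The grey genes are a selection, so this balance is not that of their lists. Txk (1.32), Ccr9 (1.59), Ly6c2 (0.74) and Marco (5.81), from the same lists, rose and are not plotted. Others that fell, such as Ace (-1.92), are not plotted either.

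The partners of the receptors differed in both directions. Tyrobp, the adaptor of Klra4 and Klra8 that myeloid cells also use, had 26.8 ± 2.22 CPM in mLN and 52.3 ± 4.75 CPM in spleen (log2 fold change -0.96, edgeR adjusted p = 1.97e-13). Hcst, a second adaptor gene of activating NK receptors, rose by 0.68 on the log2 scale to 22.8 ± 0.274 CPM in mLN, against 14.2 ± 1.16 CPM in spleen. The phosphatase gene Ptpn6 fell by 0.14. Of all 10 signalling genes 4 rose and 6 fell (median -0.13), with the kinase gene Zap70 of T and NK cells at 0.89 and Syk, which B cells use, at -1.08. The class I genes that the receptors bind changed little in size: H2-K1 rose by 0.099 and B2m by 0.11, and H2-D1 and H2-M3 fell by 0.08 and 0.21. Of 13 transcription factor genes of NK development 7 rose and 5 fell (median 0.16). Lef1 (1.97) and Tcf7 (1.53), both abundant in naive T cells, rose most, and Zeb2, a factor of NK maturation and myeloid cells, fell most (by 1.25).

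Genes of the cell types known for Klra2 and Klra17 were mostly lower in mLN, but not those of the macrophage list. Of 10 pDC genes 6 fell and 3 rose (median -0.85), and their summed level was 643 to 646 CPM in mLN, against 949 to 978 CPM in spleen. Within this sum, Spib alone had a mean of 256 CPM in mLN and 455 CPM in spleen. Its log2 fold change of -0.83 was near the median of the pan-B genes (-0.82). How much of the sum came from pDC was not tested. Siglech, a defining pDC gene, had 5.93 ± 0.834 CPM in mLN and 12.2 ± 1.27 CPM in spleen (log2 fold change -1.06), while Ccr9 rose by 1.59. All 10 neutrophil genes fell (median -8.38), to 16.9 to 17.6 CPM summed in mLN, against 1330 to 1350 CPM in spleen, and Ly6g had no counts in mLN. Of 11 monocyte genes 8 fell and 2 rose (median -0.43, 1380 to 1400 CPM summed in mLN, against 1770 to 1800 CPM in spleen), with Csf1r at -0.21 and Ace at -1.92. Of 10 macrophage genes 4 fell, 2 rose and 4 were not called (median -0.27, 105 to 114 CPM summed in mLN, against 124 to 135 CPM in spleen). Adgre1 fell by 1.37 and Marco rose by 5.81. Of 8 conventional dendritic cell genes 7 fell (median -1.08, 131 to 145 CPM summed in mLN, against 243 to 249 CPM in spleen). The 8 pan-B genes fell too (median -0.82). The part of any of these cells in the values of Klra2 and Klra17 was not tested.

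Of the 4 other Klra genes examined, Klra5 (Ly49E) and Klra13-ps passed the filter, and neither was called. The pseudogene Klra11-ps, which shares windows with Klra3, Klra6, Klra8 and Klra9, was not among them. Klra5 had 0.534, 0.394 and 0.567 CPM in mLN libraries, against 0.805, 1.10 and 0.658 CPM in spleen libraries (log2 fold change -0.78, edgeR adjusted p = 0.271). Its tissues did not overlap, but by a narrow margin. For Klra13-ps the log2 fold change was -0.56 (edgeR adjusted p = 0.47). Klra10 and Klra14-ps held 4 and 5 counts over the mLN libraries, against 2 and 0 over the spleen libraries.

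Genes whose profile lay closest to that of the members were sought among 10596 tested genes with a mean of at least 5 CPM over the 6 libraries, by Euclidean distance between centred log2 CPM values over the 6 libraries. Closest to Klra2 were Cep128, Cd180, Lilrb4a, Cdc45 and Itgax (distances 0.179 to 0.192). Cd180 had 90.1 ± 2.69 CPM in mLN and 164 ± 9.9 CPM in spleen, and Cdc45 9.42 ± 0.874 and 19.1 ± 1.56 CPM. Itgax, the integrin gene of dendritic cells and the farthest of the 5, had 44.8 ± 1.88 CPM in mLN and 86.6 ± 2.75 CPM in spleen. Whether any of these genes share cells with Klra2 was not tested. Closest to the NK-type sum were Hpse, Irgq, Bloc1s3, Erlin1 and Selenon (0.162 to 0.202). Nothing came as close to Klra17, whose nearest profiles were those of Ighv1-75, Ighv1-19, Havcr2, Jdp2 and Ffar2 (0.394 to 0.700). With 6 libraries in 2 tissues such distances mostly reflect the size of the tissue difference and counting noise.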

How the data were processed

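RNA of CD45+ cells was compared between 3 mLN and 3 spleen libraries, grouped by the tissue in their titles. Per the submitters' processing notes the authors used STAR, RSEM and build mm10; for versions, annotation, read length and strand setting, nothing is given in the sources used here. Deposited tables give expected counts, TPM and, as another column, an effective length in bases per the file headers. Symbols and positions are from GENCODE M21 (GRCm38, the same assembly); 346 of 55487 identifiers had none.

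Expected counts were rounded, filtered with filterByExpr (14427 genes left), scaled by TMM and tested with edgeR 4.0.16 (quasi-likelihood, robust, tissue only) in R 4.3.3, with Benjamini-Hochberg adjustment across the genes tested. The common coefficient of variation between libraries was 0.055. DESeq2 1.42.0 was an alternative. The script was tested on simulated data. Values are mean ± SD.

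The 9 members, the 16 gene lists and the tests were chosen with earlier results of these data known. All members are named, as are the called genes that rose or fell most in each list (up to 2 each way). So are a fixed set of markers and adaptors, and 5 genes nearest in profile. Some of these are left out for brevity, and a few list genes (Klrd1, Il2rb, Nkg7, Ly6g, Spib) were added after their values were seen. Intervals were computed from summed counts and cover counting error only. Reads carried no molecular identifiers, so copies of the same molecule could not be told apart, and the intervals may be too narrow.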

Additional observations from a re-analysis of the deposited data

How the results depend on the processing

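The number of members lower in mLN was 3 under each of the alternatives run on all libraries (median-ratio size factors, DESeq2, no filter, a stricter filter, effective lengths, composition genes left out and the replicate block), except with scaling to NK genes (0), and 2 to 3 on leaving out single libraries. With scaling to NK genes, 10844 genes were called higher and 618 lower, against 3139 and 3430. Log2 fold changes relative to NK genes were 0.71 for Klra1, 0.015 for Klra2, 0.78 for Klra4 and 0.20 for Klra7, all turned in sign, and -0.74 for Klra17, no longer called. Leaving out single libraries gave -0.42 to 0.055 for Klra1, -0.27 to 0.12 for Klra4, -0.92 to -0.53 for Klra7 (adjusted p 0.0152 to 0.194), -0.98 to -0.84 for Klra2 and -2.04 to -1.42 for Klra17. Apart from that scaling, the alternatives on all libraries gave adjusted p-values of 0.0274 to 0.0498 for Klra7. NK scaling moved the median log2 fold change of all genes from -0.002 to 0.95, as its reference genes had fallen, and the members moved upward with it. Under it a change of a member cannot be told apart from a change of the reference genes. What lay behind the lost Klra7 calls was not tested. Klra1 could not be fitted under the stricter filter. Whether library numbers pair the tissues is not stated in the labels. Deviations of same-numbered libraries correlated at 0.027, 0.028 and -0.008, which showed no pairing but cannot exclude it with 3 libraries per tissue. The replicate block gave -0.92 for Klra2, -0.74 for Klra7 and -1.66 for Klra17, all called, and a paired sign-flip p of 0.5 for the ratio of Klra17 to Klra2. Summed counts of 1 in mLN and 2 in spleen for Klra3, 4 and 16 for Klra8, and 5 and 29 for Klra9 limit what can be said of these members.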
